A study of Mus musculus with 17 samples.

Results

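A set of 10 genes of the WNT pathway was followed in cardiac fibroblasts (CFs) over the first days after myocardial infarction (MI). The genes were chosen by name for their place in the pathway, with earlier results of these data known. They comprised the secreted antagonists Sfrp1, Sfrp2, Sfrp4, Frzb and Wif1, the Dickkopf genes Dkk2 and Dkk3, the ligand Wnt5a, the receptor Fzd1 and the target Axin2. These 10 genes were among 31053 listed in the count table, and all 10 were among the 14030 that passed the filter of at least 10 counts in at least 3 libraries. Bulk RNA-seq was performed by MARS-seq, which counts reads from the 3′ ends of poly-A transcripts, on 17 libraries of sorted GFP+/CD31-/CD45- cells. The hearts came from C57BL/6 mice of the genotype Collagen1a1-GFP+, 8 to 10 weeks old, in which MI was induced by ligation of the left anterior descending coronary artery. GFP in this reporter marks cells that use the promoter of the collagen I gene Col1a1, so the sort covers CFs that expressed the reporter. There were 3 libraries each at 1, 2, 4 and 6 days post-infarction (dpi), 4 at 3 dpi and 1 at 5 dpi. In the count table the columns of 3 dpi are named in another form than those of all other days. What this form stands for is not given, so it cannot be told apart from the day in comparisons with 3 dpi. All of these mice carried the reporter and an infarct, and uninfarcted hearts were not analysed here. The study's methods speak of biological replicates. In their section on single-cell preparation they name single mice as the source of cells for 3 and 5 dpi. Whether this covers the bulk libraries is not stated in that section. For the other days the sources used here do not say which mice were used for a library, and the sex of the mice is not given. P-values measure the spread between these libraries.

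WNT proteins are secreted ligands that bind Frizzled receptors. With the co-receptors LRP5 or LRP6 they stabilize β-catenin, which then activates target genes with TCF/LEF factors, while other WNT signals act without β-catenin. Secreted frizzled-related proteins and WIF1 bind the ligands outside the cell, and Dickkopf proteins such as DKK2 bind the co-receptors. AXIN2 is a target that feeds back on the β-catenin destruction complex. Fibroblasts of the heart are known as a source of several of these secreted antagonists after injury.

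Total counts ranged from 8021815 to 22029938 per library. The summed level of 8 fibroblast markers was between 12213 and 38657 CPM (counts divided by the library total and scaled to 1000000), whereas 8 leukocyte markers summed to at most 218 CPM and 6 endothelial markers to at most 59.5 CPM. In 10 of the 17 libraries Y-linked counts exceeded those of Xist. These were all libraries of 2, 3 and 5 dpi and 2 of the 3 at 1 dpi, whereas each library of 4 and 6 dpi had more Xist counts.

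The promoters of the members that differed most between days, Sfrp2 and Dkk2, are shown beside that of the target Axin2. The promoter table of RefSeq for GRCm38.p6 held 6 of the 10 members, namely Sfrp2, Frzb, Wif1, Dkk2, Axin2 and Fzd1. Each sequence is the 250 bases before the annotated start of the gene, on the plus strand and read 5′ to 3′, at chr3:83766071-83766320 for Sfrp2, chr3:132085042-132085291 for Dkk2 and chr11:108920099-108920348 for Axin2. Capitals mark the letters ATAAAA, which resemble a TATA box.
Sfrp2: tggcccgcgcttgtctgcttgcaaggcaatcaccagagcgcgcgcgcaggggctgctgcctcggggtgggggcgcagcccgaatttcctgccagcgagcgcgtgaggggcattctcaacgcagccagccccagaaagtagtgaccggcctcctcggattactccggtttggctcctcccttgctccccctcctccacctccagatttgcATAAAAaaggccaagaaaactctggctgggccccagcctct
Dkk2: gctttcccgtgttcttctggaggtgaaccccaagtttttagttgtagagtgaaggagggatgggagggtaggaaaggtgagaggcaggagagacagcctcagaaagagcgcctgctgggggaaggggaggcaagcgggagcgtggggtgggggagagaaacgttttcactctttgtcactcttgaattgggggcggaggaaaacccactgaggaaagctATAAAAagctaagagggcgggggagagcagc
Axin2: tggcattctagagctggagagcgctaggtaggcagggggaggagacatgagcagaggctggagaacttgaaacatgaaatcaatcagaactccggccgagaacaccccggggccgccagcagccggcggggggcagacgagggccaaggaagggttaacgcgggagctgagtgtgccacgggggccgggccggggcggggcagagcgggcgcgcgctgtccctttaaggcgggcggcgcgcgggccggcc
ATAAAA began 41 bases before the start of Sfrp2 and 31 bases before that of Dkk2, on the strand of the gene. It was searched on both strands after the sequences had been read, and 16.97% of the 32851 promoters of this length held it on either strand. Fzd1 also held it, at 201 and 184 bases, and the windows of Axin2, Frzb and Wif1 did not. For the core of the TCF/LEF motif, only the letters CTTTGA, or TCAAAG on the other strand, were searched. They were found in Frzb and Fzd1 among the 6, and in 13.83% of all promoters. Other forms of this core, such as CTTTGT, were not searched. Neither motif overlaps the other. G and C made up 63.6% of the window of Sfrp2, 55.6% of that of Dkk2 and 69.2% of that of Axin2.

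Sfrp2, Sfrp1, Dkk2 and Dkk3 changed over the time course, so 4 of the 10 members passed the test for any difference between days, beside 15.0% of all genes tested. Sfrp2 and Sfrp1 were highest at 6 dpi, where their means were 10.0-fold and 3.74-fold those of 1 dpi. Dkk2 was higher at 3 to 5 dpi than before, and its lower level at 6 dpi did not pass by edgeR. Dkk3 was lowest at 3 dpi and highest at 6 dpi. The ligand Wnt5a, the receptor Fzd1 and the target Axin2 did not pass in the whole course or in any comparison of days. Calls rest on the quasi-likelihood F-test of edgeR, with p-values adjusted by Benjamini-Hochberg across the 14030 genes and called under 0.05. In these sorted bulk samples, fewer cells that express a gene and less of its RNA per cell cannot be told apart.

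**Figure D1:**
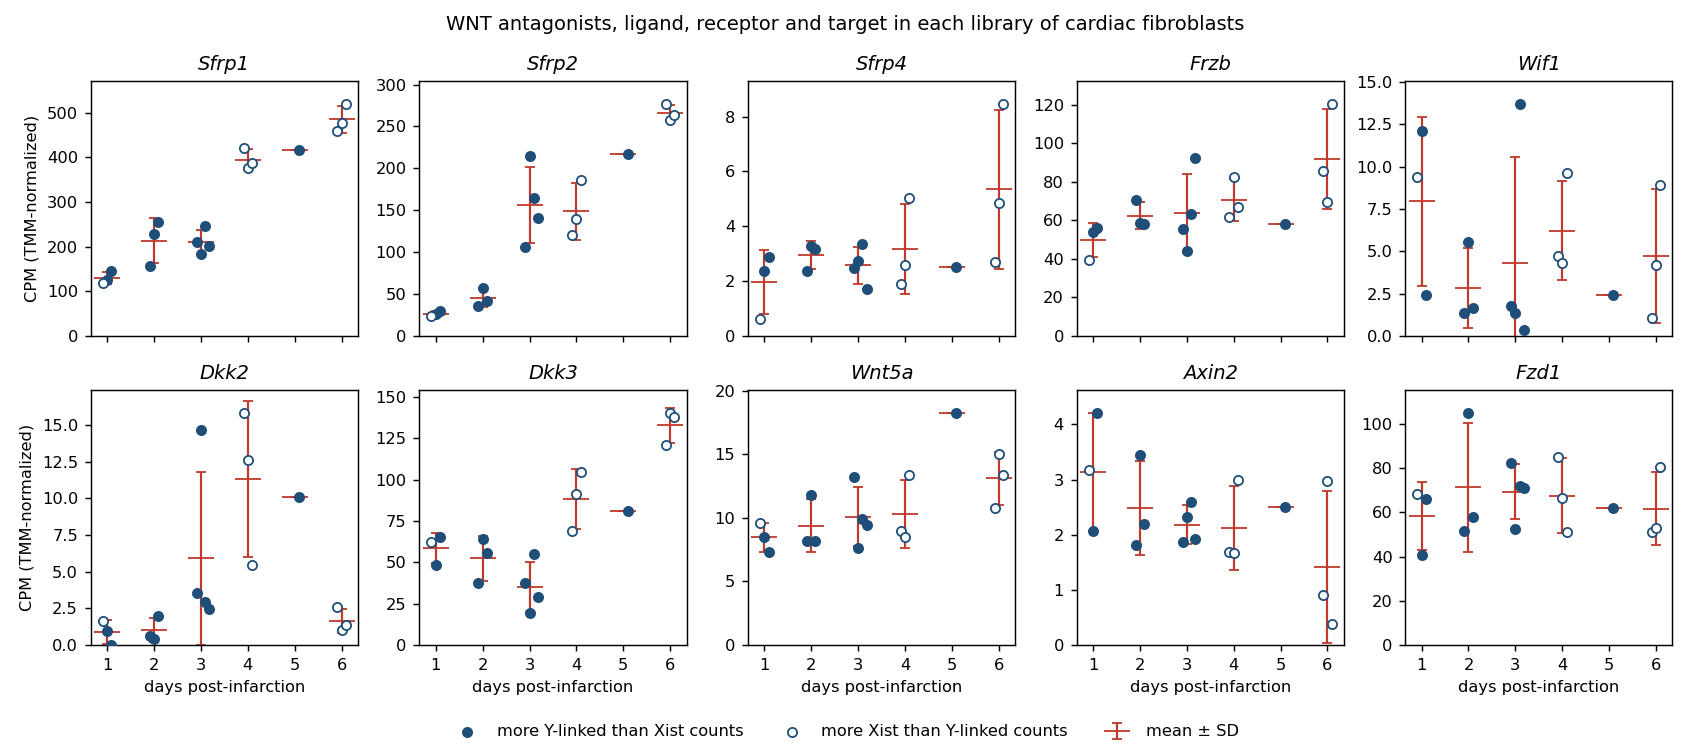
Level of each of the 10 WNT genes in TMM-normalized CPM (y axis) by day post-infarction (x axis), with 1 point per library, filled where Y-linked counts exceeded Xist counts and open where they did not, and red bars for the mean ± SD of a day (no SD for the single 5 dpi library; bars cut at 0). Sfrp1 and Sfrp2 reached 460.0 to 519 and 257 to 277 CPM at 6 dpi, and Dkk2 lay between 2.45 and 15.8 CPM at 3 to 5 dpi and at or below 2.58 CPM on the other days.

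Sfrp2 encodes a secreted frizzled-related protein, and the gene (ENSMUSG00000027996) lies on the plus strand of chromosome 3 at 83766321 to 83774316 (GRCm38). Its level in TMM-normalized CPM was 23.8, 25.8 and 29.9 in the libraries of 1 dpi and 35.9, 56.7 and 41.5 at 2 dpi. It was 106, 214.5, 165 and 141 CPM at 3 dpi, 120.2, 139 and 186 CPM at 4 dpi, 217 CPM in the 5 dpi library and 277, 257 and 264 CPM at 6 dpi. All 8 libraries of 3 to 5 dpi lay above all 6 of 1 and 2 dpi, and all 3 of 6 dpi lay above every earlier library. The mean of 3 to 5 dpi was 4.98-fold that of 1 and 2 dpi (log2 fold change 2.32, SE 0.20, adjusted p = 3.9e-07). The step fell between 2 and 3 dpi, where the log2 fold change was 1.81 (SE 0.26, adjusted p = 0.0023), and 1 of the 10 members passed there beside 2.94% of all genes. From 3 to 4 dpi the groups overlapped, with a log2 fold change of -0.08 (SE 0.25). The rise from 1 to 6 dpi was 3.33 on the log2 scale (SE 0.29, adjusted p = 1.2e-06). The gain from 4 to 6 dpi, 0.84 on the log2 scale (SE 0.27), had an adjusted p of 0.11 although the libraries did not overlap.

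Gm26771, listed on the opposite strand, shares exon bases with Sfrp2. It held 19.5% to 27.7% as many counts as Sfrp2 in the libraries of 1 dpi and 8.05% to 17.8% at 2 dpi. The share was 0% to 6.72% at 3 dpi and 8.32% to 24.7% at 4 dpi. It was 8.77% at 5 dpi and 6.03% to 8.44% at 6 dpi. Replicates 1, 2 and 4 of 3 dpi, with 0%, 0.638% and 0.453%, lay below every library of the other days. The strand setting of the authors' counting is not given in the sources used here, so reads of these overlapping genes may not be told apart. Their part in the difference was not tested.

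Sfrp1, another secreted frizzled-related protein gene (ENSMUSG00000031548, chromosome 8, 23411502 to 23449632, plus strand), had levels of 119, 125 and 145 CPM at 1 dpi and 157, 228 and 255 CPM at 2 dpi. At 3 dpi it had 211, 184, 246 and 202 CPM, within the range of the day before. It then stood at 421, 375 and 387 CPM at 4 dpi, 416 CPM at 5 dpi and 460.0, 476 and 519 CPM at 6 dpi. Sfrp1 thus lay on 3 levels, a low one at 1 dpi, a middle one at 2 and 3 dpi and a high one from 4 dpi, with no overlap between them. The mean of 3 to 5 dpi exceeded that of 1 and 2 dpi by 0.97 on the log2 scale (SE 0.16, adjusted p = 7.7e-04), with 4 of 8 libraries above all 6 early ones. The log2 fold change was 0.91 from 3 to 4 dpi (SE 0.21, adjusted p = 0.027) and 1.90 from 1 to 6 dpi (SE 0.24, adjusted p = 4.8e-05). The steps of 0.72 from 1 to 2 dpi (SE 0.23, adjusted p = 0.39) and of 0.30 from 4 to 6 dpi (SE 0.23, adjusted p = 0.48) did not pass. The step from 3 to 4 dpi was lost without replicate 1 or 4 of 3 dpi (adjusted p = 0.067 and 0.066) and without replicate 1 or 2 of 4 dpi (adjusted p = 0.11 and 0.086).

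Frzb encodes the frizzled-related protein also called SFRP3, and the gene (ENSMUSG00000027004) lies on the minus strand of chromosome 2 at 80411970 to 80447625. Frzb had 39.5, 53.8 and 56.0 CPM at 1 dpi, 70.5, 58.9 and 58.1 CPM at 2 dpi and 85.5, 69.7 and 120.4 CPM at 6 dpi. From 3 to 5 dpi the 8 libraries ranged from 44.0 to 92.2 CPM and overlapped both ends. Frzb was 1.84-fold higher at 6 dpi than at 1 dpi (log2 0.88, SE 0.28, adjusted p = 0.043), with 3 of 3 libraries above all 3 of 1 dpi. It did not pass over the whole course (adjusted p = 0.22), and its call at 6 dpi was lost in 12 of the 16 fits that left out 1 library, with an adjusted p of up to 0.18, reached without replicate 1 of 1 dpi. These 12 were all 6 libraries of 1 and 2 dpi, replicates 1 and 3 of 3 dpi, 1 and 2 of 4 dpi and 1 and 3 of 6 dpi.

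Sfrp4 (ENSMUSG00000021319, chromosome 13, 19623104 to 19632994, plus strand), the remaining frizzled-related gene, was at a few CPM throughout. It had 0.633, 2.35 and 2.88 CPM at 1 dpi, 1.70 to 5.02 CPM in the 11 libraries of 2 to 5 dpi and 2.71, 4.86 and 8.45 CPM at 6 dpi. The highest library was the third of 6 dpi and the lowest the first of 1 dpi, and the 2 days overlapped. The log2 fold change of 1.40 from 1 to 6 dpi (SE 0.58) had an adjusted p of 0.12.

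Wif1, the gene of WNT inhibitory factor, which binds WNT ligands through a domain unlike that of Frizzled, varied as much within days as between them. The gene (ENSMUSG00000020218) lies on the plus strand of chromosome 10 at 121033960 to 121100650. Its 4 libraries of 3 dpi had 1.77, 1.37, 13.7 and 0.319 CPM, and those of 1 dpi had 9.37, 12.1 and 2.40 CPM. At 6 dpi it had 1.03, 4.18 and 8.91 CPM. No day stood apart, and the log2 fold change from 1 to 6 dpi was -0.76 (SE 0.93, adjusted p = 0.64).

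Dkk2, a Dickkopf gene whose product binds LRP5 and LRP6, lies on the plus strand of chromosome 3 at 132085292 to 132180304 (ENSMUSG00000028031). It had 1.65, 0.989 and 0 CPM at 1 dpi and 0.643, 0.425 and 1.96 CPM at 2 dpi. It reached 3.55, 14.7, 2.97 and 2.45 CPM at 3 dpi, 15.8, 12.6 and 5.45 CPM at 4 dpi and 10.1 CPM at 5 dpi, and stood at 2.58, 1.02 and 1.38 CPM at 6 dpi. Behind these levels were 0 to 34 counts per library at 1 and 2 dpi, 23 to 244 at 3 to 5 dpi and 12 to 40 at 6 dpi. All 8 libraries of the window lay above all 6 earlier ones, and the 6 dpi libraries lay below all 3 of 4 dpi, while replicate 1 of 6 dpi lay above replicate 4 of 3 dpi. The mean of 3 to 5 dpi was 9.71-fold that of 1 and 2 dpi (log2 3.28, SE 0.65, adjusted p = 0.0027). Dkk2 was the only member for which the fitted difference between 6 dpi and the window was below -2, at -2.38 (SE 0.81), and this lay just outside the threshold with an adjusted p of 0.059 by edgeR and 0.011 by DESeq2. From 4 to 6 dpi the log2 fold change was -2.75 (SE 0.87), with an adjusted p of 0.11 by edgeR and 0.028 by DESeq2. The step from 2 to 3 dpi was 2.55 (SE 0.85), with an adjusted p of 0.10 by edgeR and 0.021 by DESeq2. Within 3 dpi, replicate 2 had 14.7 CPM and the other 3 libraries 2.45 to 3.55 CPM.

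Dkk3, a divergent member of the Dickkopf family, lies on the minus strand of chromosome 7 at 112116017 to 112159057 (ENSMUSG00000030772). Its libraries had 62.3, 48.3 and 65.6 CPM at 1 dpi, 37.4, 64.4 and 55.5 CPM at 2 dpi and 37.6, 19.6, 55.0 and 28.8 CPM at 3 dpi. They had 69.2, 91.2 and 105 CPM at 4 dpi, 80.9 CPM at 5 dpi and 121.0, 140.1 and 138 CPM at 6 dpi. Every library from 4 dpi on was above every earlier one, and the 3 of 6 dpi were above all others. Unlike Sfrp2, Dkk3 at 3 to 5 dpi as a whole was not separated from 1 and 2 dpi (log2 0.19, SE 0.22, adjusted p = 0.67), since its lowest and its higher days both fell in that window. It rose 2.50-fold from 3 to 4 dpi (log2 1.32, SE 0.29, adjusted p = 0.016) and 2.26-fold from 1 to 6 dpi (log2 1.18, SE 0.31, adjusted p = 0.018). It was also higher at 6 dpi than at 3 to 5 dpi (log2 1.07, SE 0.26, adjusted p = 0.014), but without the 3 dpi libraries that log2 fold change was 0.66 and did not pass. Without replicate 2 of 6 dpi, the adjusted p of Dkk3 was 0.078 against 3 to 5 dpi and 0.059 against 1 dpi, and without replicate 1 or 2 of 1 dpi the latter was 0.060 or 0.084. The step from 3 to 4 dpi was lost without replicate 4 of 3 dpi (adjusted p = 0.051) and without replicate 2 or 3 of 4 dpi (adjusted p = 0.067 and 0.058).

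The libraries of 3 and 4 dpi differed fully in their Xist and Y-linked counts, so that day and this pattern cannot be told apart between them by these groups alone. With the ratio of Xist to Y-linked counts as a covariate, Sfrp1 and Dkk3 did not pass from 3 to 4 dpi (adjusted p = 0.56 and 0.59). Their log2 fold changes were then 1.34 (SE 0.64) and 1.66 (SE 0.85), beside 0.91 (SE 0.21) and 1.32 (SE 0.29) without the covariate. Dkk3 also did not pass over the course (adjusted p = 0.14). Dkk3 and Frzb then did not pass from 1 to 6 dpi (log2 1.36 and 1.26, SE 0.55 and 0.53, adjusted p = 0.17 and 0.19). Nor did Dkk3 at 6 dpi against 3 to 5 dpi (log2 1.28, SE 0.56, adjusted p = 0.25). Sfrp1 and Sfrp2 passed from 1 to 6 dpi with the covariate (adjusted p = 0.013 and 0.0023). The 5 dpi library, which had the pattern of 3 dpi, had 416 CPM of Sfrp1 against 184 to 246 CPM at 3 dpi and 80.9 CPM of Dkk3 against 19.6 to 55.0 CPM. The 10 libraries in which Y-linked counts exceeded Xist include none of 4 dpi. The single 5 dpi library thus weighs as much there as the 4 of 3 dpi. Among these 10, the differences of 3 and 5 dpi from 1 and 2 dpi were 2.39 for Sfrp2, 3.42 for Dkk2 and 0.80 for Sfrp1 on the log2 scale. Their adjusted p were 2.9e-04, 0.032 and 0.046. Sfrp1 at 3 dpi lay within the range of 2 dpi, and only its 5 dpi library stood above all libraries of 1 and 2 dpi. Only 1 library of 1 dpi, replicate 1, had more Xist than Y-linked counts, as at 6 dpi, which is too few for a test. Its counts were 1670 and 84, whereas the 6 dpi libraries had 1 to 10 Y-linked counts. Replicate 2 of 1 dpi held both, with 461 Xist and 1455 Y-linked counts. Replicate 1 of 1 dpi had 119 CPM of Sfrp1, 23.8 of Sfrp2, 62.3 of Dkk3 and 39.5 of Frzb, below each 6 dpi library for each gene.

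Wnt5a, a ligand known for signalling without β-catenin, was found in every library. The gene (ENSMUSG00000021994) lies on the plus strand of chromosome 14 at 28504750 to 28527448. Wnt5a had 9.62, 8.49 and 7.33 CPM at 1 dpi and 10.8, 15.0 and 13.4 CPM at 6 dpi, and its highest level was the 18.2 CPM of the 5 dpi library. The 3 libraries of 6 dpi lay above the 3 of 1 dpi, but those of 2, 3 and 4 dpi, from 7.65 to 13.4 CPM, overlapped both. The log2 fold change from 1 to 6 dpi was 0.63 (SE 0.30, adjusted p = 0.17).

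Fzd1, a Frizzled receptor gene (ENSMUSG00000044674, chromosome 5, 4753839 to 4758035, minus strand), had nearly the same mean on each day. Its mean log2 CPM was 5.83 ± 0.41 at 1 dpi (SD, n = 3), 6.09 ± 0.55 in the 3 libraries of 2 dpi, 6.10 ± 0.27 in the 4 of 3 dpi, 6.05 ± 0.37 in the 3 of 4 dpi and 5.92 ± 0.36 in the 3 of 6 dpi. In CPM its libraries lay between 40.8 at 1 dpi and 104.7 at 2 dpi. The single 5 dpi library had 62.0 CPM. Neighbouring day means differed by less than the larger of their SDs, and the adjusted p over the course was 0.94.

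Axin2 (ENSMUSG00000000142, chromosome 11, 108920349 to 108950783, plus strand), the target gene, was covered by only 5 to 86 counts per library. It had 3.17, 2.06 and 4.20 CPM at 1 dpi and 0.904, 2.98 and 0.384 CPM at 6 dpi, and the 11 libraries between had 1.67 to 3.45 CPM. Of the 3 libraries of 6 dpi, 2 were below all others and 1 was within their range. The log2 fold change from 1 to 6 dpi was -1.15 (SE 0.65, adjusted p = 0.26), and a difference of this size did not pass at this depth. Genes on the opposite strand also share exon bases with Wnt5a and Axin2, and held at most 8.55% and 6.90% as many counts as these in any library.

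By edgeR with the filter used here, the members that passed between days did so upwards, whereas DESeq2 called Dkk2 lower at 6 dpi than at 3 to 5 dpi and than at 4 dpi (adjusted p = 0.011 and 0.028), as did edgeR on all genes with at least 1 count (adjusted p = 2.9e-04 and 3.2e-04). From 1 to 6 dpi, Sfrp2, Sfrp1, Dkk3 and Frzb rose, so 4 of 10 members passed upwards beside 6.91% of all genes, and none passed downwards beside 5.21%. The median log2 fold change was 0.97 over the members and 0.03 over all genes tested. Sfrp2, Dkk2 and Sfrp1 were higher at 3 to 5 dpi than at 1 and 2 dpi, 3 of 10 members beside 5.25% of all genes, with medians of 0.19 and -0.00. At 6 dpi against 3 to 5 dpi only Dkk3 passed, 1 of 10 beside 6.25% of genes that were higher, with medians of 0.37 and -0.01. From 3 to 4 dpi Dkk3 and Sfrp1 rose, 2 of 10 beside 1.63% of genes that were higher.

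No member passed from 1 to 2 dpi, where 0.178% of all genes did, or from 4 to 6 dpi, where 0.513% did. At an unadjusted p under 0.05 by edgeR there were 2 members in each of these comparisons, beside 7.58% of all genes from 1 to 2 dpi and 19.9% from 4 to 6 dpi. DESeq2 called 0 and 2 members at its adjusted p, beside 0.741% and 5.52% of the genes it tested. The comparisons share libraries, so their calls are not independent of each other. The members were chosen with earlier results of these data known, so their shares beside all genes are a description and not a test.

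**Figure D2:**
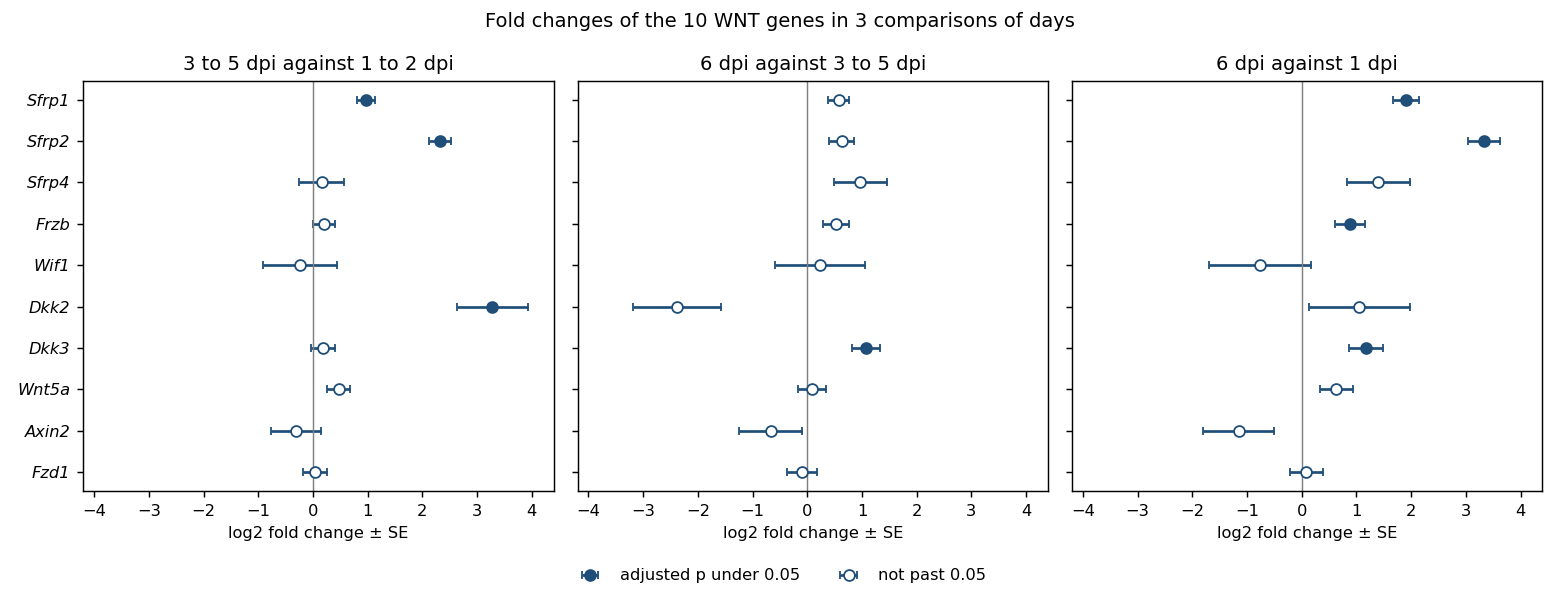
Log2 fold change ± SE (x axis) of each of the 10 WNT genes (y axis) in 3 comparisons of days, from edgeR, with filled points where the adjusted p was under 0.05. Dkk2 has the largest difference between 3 to 5 dpi and 1 to 2 dpi, 3.28, and the lowest at 6 dpi against 3 to 5 dpi, -2.38, while Fzd1 lies near 0 in all 3 panels.

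Markers of other cells moved with some of these days. Of 6 cardiomyocyte markers, 5 passed over the course, and their sum was 9.39 to 37.5 CPM at 1 and 2 dpi, 6.00 to 61.9 CPM at 3 to 5 dpi and 75.7 to 162 CPM at 6 dpi. Of 6 mural cell markers, 3 passed, with sums of 40.4 to 84.3, 81.0 to 205.5 and 132 to 160.0 CPM over the same days. Of the 8 fibroblast markers, 6 passed, and their sum was 12213 to 18840 CPM at 1 dpi and 17905 to 31947 CPM at 6 dpi. Of the leukocyte and endothelial markers 1 each passed, and of 6 epicardial and 4 Schwann cell markers none, with the epicardial sum reaching 494 CPM in 1 library of 6 dpi. No marker was at 0 in every library. From 3 to 4 dpi, where Sfrp1 and Dkk3 rose, the cardiomyocyte sum went from 6.00 to 10.8 CPM to 36.3 to 61.9 CPM with no overlap, and it was 12.9 CPM in the 5 dpi library. From 2 to 3 dpi, where Sfrp2 rose, the leukocyte sum went from 8.27 to 20.9 CPM to 40.9 to 218 CPM with no overlap. It was 17.4 to 24.6 CPM at 4 dpi, 76.5 CPM at 5 dpi and 21.8 to 33.0 CPM at 6 dpi. The part of these markers in the changes of Sfrp1, Sfrp2, Frzb, Dkk2 and Dkk3, and in those of the other WNT genes given next, was not tested.

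The rest of the pathway was read from 7 lists, which together held 99 other genes. Of these, 71 passed the filter and 14 changed over the course, a share of 19.7% beside 15.0% of all genes. With each library left out in turn, 7 of the 14 passed every time. Of the 16 such fits, Fzd2, Ptk7, Ctnnbip1 and Wnt4 were each lost over the course in 10. Nkd1 was lost in 12, Igfbp4 in 8 and Daam2 in 1. Among receptors and co-receptors 4 of 14 tested changed, among feedback and transcriptional targets 4 of 10, among other secreted or membrane modulators 2 of 5, among intracellular transducers 2 of 18, among ligands 1 of 8 and in the planar polarity branch 1 of 9. None of the 9 tested genes for agonists, WNT secretion and receptor turnover passed. From 1 to 6 dpi the median log2 fold change was 0.88 for the planar polarity branch, 0.63 for the agonists, secretion and turnover genes, 0.52 for the receptors, 0.30 for the transducers, 0.25 for the ligands, 0.00 for the other modulators and -0.15 for the targets, beside 0.03 for all genes.

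Among receptors, Fzd5 was higher at 3 to 5 dpi than at 1 and 2 dpi by 1.91 on the log2 scale (SE 0.31, adjusted p = 5.0e-04), and Ptk7, a WNT co-receptor of the planar polarity branch, by 0.93 (SE 0.23, adjusted p = 0.016). Without the 3 dpi libraries the difference of Ptk7 was 0.96 (SE 0.28, adjusted p = 0.054) and did not pass. Fzd2 rose from 1 to 6 dpi by 1.75 (SE 0.43, adjusted p = 0.013). Lrp5, a co-receptor that the product of Dkk2 binds, fell by 1.22 on the log2 scale from 2 to 3 dpi (SE 0.25, adjusted p = 0.013). It rose by 1.30 from 3 to 4 dpi (SE 0.25, adjusted p = 0.0093). Like Dkk3, Lrp5 had its lowest day mean at 3 dpi and its highest at 6 dpi. The second of these steps was lost with the Xist covariate (log2 1.79, SE 0.76, adjusted p = 0.50). The first was lost without replicate 2 or 3 of 2 dpi (adjusted p = 0.098 and 0.071). Fzd2 was lost at 6 dpi without replicate 2 or 3 of 1 dpi or replicate 1 or 2 of 6 dpi, with an adjusted p of up to 0.061.

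The targets did not move one way. Nkd2, a feedback inhibitor that binds Dishevelled, rose by 1.92 on the log2 scale from 1 to 6 dpi (SE 0.26, adjusted p = 1.3e-04) and by 1.84 from 3 to 4 dpi (SE 0.24, adjusted p = 3.7e-04). With the Xist covariate the latter was 2.39 (SE 0.72, adjusted p = 0.31) and did not pass. Nkd1, a relative of Nkd2, rose by 1.45 from 1 to 6 dpi (SE 0.41, adjusted p = 0.026), a call lost without any 1 library of 1 dpi or without replicate 1 or 2 of 6 dpi (adjusted p of up to 0.094). Ccn4, a matricellular gene first described as WNT-induced, was higher at 3 to 5 dpi than before by 2.15 (SE 0.28, adjusted p = 5.3e-05). Myc, a growth regulator, fell by 1.41 on the log2 scale from 1 to 6 dpi (SE 0.25, adjusted p = 0.0011). With the Xist covariate the calls from 1 to 6 dpi were lost for Myc (log2 -1.21, SE 0.42, adjusted p = 0.11), Nkd1 (log2 1.57, SE 0.78, adjusted p = 0.27) and the receptor Fzd2 (log2 1.21, SE 0.78, adjusted p = 0.4). That of Nkd2 passed. Axin2, as given above, did not pass.

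Among the modulators, Cthrc1 rose by 4.10 on the log2 scale from 1 to 6 dpi (SE 0.31, adjusted p = 1.3e-07). It encodes a secreted protein that binds WNT and Frizzled and is not an antagonist of the kind the list was drawn up for. Igfbp4, an IGF-binding protein that also binds LRP6, rose by 1.12 over these days (SE 0.35, adjusted p = 0.044). Of the transducers, Tcf7l1, a TCF factor that mostly represses, rose by 0.80 (SE 0.25, adjusted p = 0.043) and Ctnnbip1, an inhibitor of β-catenin and TCF binding, by 1.17 (SE 0.27, adjusted p = 0.0086). Daam2, a formin that works with Dishevelled, rose by 2.26 (SE 0.56, adjusted p = 0.013). The ligand Wnt4 passed over the course (adjusted p = 0.04) but in none of the comparisons between days. Another ligand, Wnt5b, rose from 1 to 6 dpi by 1.52 on the log2 scale (SE 0.45, adjusted p = 0.034). Vangl1 of the planar polarity branch rose by 0.88 (SE 0.29, adjusted p = 0.048). Neither passed over the course (adjusted p = 0.21 and 0.085), and fits that left out a library were not read for them. Of the calls at 6 dpi against 1 dpi, those of Tcf7l1 and Igfbp4 were lost in 10 of 16 fits that left out 1 library, among them each library of 1 dpi and replicates 1 and 2 of 6 dpi, with an adjusted p of up to 0.19 and 0.18. With the Xist covariate the calls of Tcf7l1, Igfbp4 and Ctnnbip1 were lost (adjusted p = 0.2, 0.13 and 0.22). Their log2 fold changes were then 1.03 (SE 0.44), 1.81 (SE 0.65) and 1.11 (SE 0.49). The call of Ctnnbip1 was also lost without replicate 2 of 1 dpi or of 6 dpi (adjusted p = 0.052 and 0.051), and that of Daam2 without replicate 2 of 6 dpi (adjusted p = 0.055). Wnt4 was lost over the course in 10 of 16 such fits, with an adjusted p of up to 0.090 without replicate 2 of 6 dpi.

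**Figure D3:**
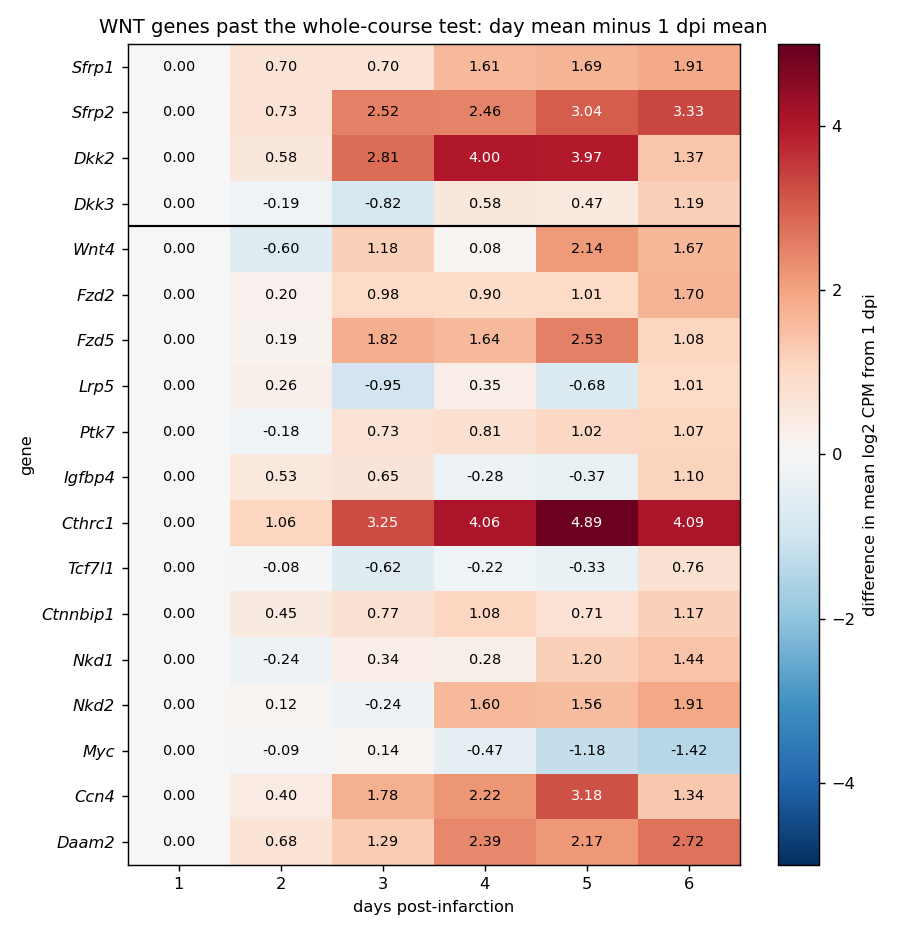
Difference of the mean log2 CPM of each day from that of 1 dpi (colour and printed value) for the 4 members, above the line, and the 14 other WNT genes, below it, that passed the test over the whole course, with days post-infarction on the x axis and genes on the y axis. Dkk2 reaches 4.00 at 4 dpi and is at 1.37 at 6 dpi, but at 2.88 and 0.25 without replicate 3 of 1 dpi, which had 0 counts. Sfrp2 goes on to 3.33 at 6 dpi and Myc is at -1.42. Of the 14 other genes, 7 did not pass in at least 1 fit that left out a library.

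The genes whose log2 CPM followed each member most closely over the 17 libraries were taken from 8918 genes with a mean of at least 100 counts. For Sfrp2 these were Cthrc1 (Pearson's r = 0.96) and Col14a1, a fibril-associated collagen (r = 0.94). For Sfrp1 they were Clec11a, a secreted growth factor of the C-type lectin family (r = 0.95), and Ptn, the gene of pleiotrophin (r = 0.94). For Dkk2 they were Haus7, of the augmin complex of the spindle (r = 0.87), and H2afx, a histone variant (r = 0.85). For Dkk3 they were Ptprb and Izumo4, each with r = 0.91.

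Of the other members, Sfrp4 was about as close to its nearest genes as Dkk2 was. The coefficient was 0.89 for Sfrp4 with Nrbp2 and 0.88 with Tspan7, and 0.80 for Frzb with Zfp532 and 0.78 with Itga11, an integrin subunit that binds collagen. Wnt5a had r = 0.79 with Cd200 and with Prickle1, a planar polarity gene. Fzd1 had r = 0.79 with Aak1 and with Lrch3. Axin2 followed Aste1 at 0.77 and Dcp1a at 0.74, and Wif1 followed Irf9 at 0.73 and Crkl at 0.71. These coefficients describe libraries that share days, depth and preparation, and were selected as the highest of many.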

How the data were processed

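RNA of sorted Col1a1-GFP+ CFs was sequenced by MARS-seq in 17 libraries. Per the submitters' processing notes and the study's methods, the authors used bcl2fastq (1.2.4) for demultiplexing, STAR for alignment to mm10, and featureCounts with an Ensembl annotation of GRCm38 for counting. The deposited values are raw counts per gene, with no normalization. Collapsing of molecular identifiers and the strand setting are not given in the sources used here. The 5 dpi library is replicate 3 by its title, which was used here, but replicate 1 by its description. Because reads come from 3′ ends and gene length does not scale them, levels of different genes were not compared.

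Counts were tested in R (4.3.3) with edgeR (4.0.16), using TMM normalization and a quasi-likelihood F-test whose model had a term for each of the 6 days and included all 17 libraries. The filter kept genes that reached 10 counts in 3 or more libraries. Adjustment was by Benjamini-Hochberg, and calls were made under 0.05. Standard errors were obtained by dividing the absolute log2 fold change by the root of F. Log2 CPM used a prior count of 2. The mean of 3 to 5 dpi weights the 3 days equally, so the single 5 dpi library counts as much as the 4 of 3 dpi. The pipeline was tested on simulated data. Alternatives were DESeq2 (1.42.0), its size factors in edgeR, other count filters, a block for the replicate number, the log2 ratio of Xist to Y-linked CPM as a covariate, subsets of days and leaving out each library.

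The members, pathway lists and marker lists were chosen with earlier results of these data known. Named genes were all 10 members, for each the 2 genes with the highest correlation, and from each pathway list at most 4 that passed over the course, by mean count. Positions of genes were read from GENCODE vM21 (GRCm38), which is not the release used for counting, and promoters from RefSeq. Totals per library and counts of 5 to 86 for a low gene such as Axin2 set the precision. If molecular identifiers were not collapsed, which is not given, reads are not independent molecules.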

Additional observations from a re-analysis of the deposited data

How the results depend on the processing

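The number of members called stayed within 1.5 times over the whole course, for 3 to 5 dpi against 1 and 2 dpi and for 2 against 1 dpi under each alternative and each library left out, with 3 to 4, 2 to 3 and 0 members. Requiring 10 counts in every library left 6 of the 10 members to test. For 6 dpi against 3 to 5 dpi, where 1 member passed, DESeq2 called 4, the filter of 1 count over all libraries 2, that of 10 counts in every library 2, only the days compared 2, the fit without the 5 dpi library 3, and the Xist covariate and the fit without the 3 dpi libraries 0. Leaving out single libraries gave 0 to 4, with 4 without 3 dpi replicate 2, 3 without 4 dpi replicate 3, 2 without 1 dpi replicate 3 and 0 without 6 dpi replicate 2. For 3 against 2 dpi, DESeq2, the filter of 1 count and the Xist covariate each called 2 in place of 1, adding Dkk2. For 4 against 3 dpi, where 2 passed, the filter of 1 count called 1, and the Xist covariate and only the days compared 0; leaving out single libraries gave 0 to 2, with 0 without 3 dpi replicate 4 or 4 dpi replicate 2. For 6 against 4 dpi, DESeq2 called 2 and the filter of 1 count 1 in place of 0, and single libraries gave 0 to 2, with 2 without 3 dpi replicate 2. For 6 against 1 dpi, where 4 passed, the Xist covariate called 2, and single libraries gave 2 to 4, with Sfrp1 and Sfrp2 alone without 1 dpi replicate 1 or 1 dpi replicate 2. The causes were not tested. The log2 fold change from 1 to 6 dpi turned to -1.82 for Dkk2 and -0.13 for Fzd1 with the Xist covariate, and for Fzd1 to -0.13 without 1 dpi replicate 2 and -0.16 without 6 dpi replicate 3, none of which passed; with single libraries left out, Fzd1 ranged from -0.16 to 0.20.

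Replicate numbers gave no sign of pairing. Same-numbered libraries of different days had a mean correlation of deviations of 0.007 over 30 pairs (-0.25 to 0.326), beside -0.006 over 72 pairs of different numbers. Of 16 libraries, 4 correlated best with their own number. With so few libraries per day, this cannot show that none were paired. With the replicate block, the calls from 3 to 4 dpi went from 2 to 1 (Dkk3 kept, adjusted p of Sfrp1 0.071), and the block changed no other number of members called by over 1.5 times. With fold changes spread over 22 to 26 alternatives each, Sfrp2 stayed between 2.15 and 2.42 for 3 to 5 dpi against 1 and 2 dpi, and Dkk2 between 2.91 and 3.73. Axin2, Sfrp4, Wif1 and Dkk2 each had under 10 counts in at least 1 library, so their levels there rest on few reads. The part of depth in their spread was not tested.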
